A study of Mus musculus with 9 samples.

Results

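The genes described here are p53 itself (Trp53), its ubiquitin ligase Mdm2, the cyclin-dependent kinase (CDK) inhibitors Cdkn1a, Cdkn2a and Cdkn2b, and the p53 targets Ccng1, Bbc3, Bax, Sesn2 and Gdf15. They were taken by gene symbol from a table of read counts for 19044 Ensembl gene identifiers in mouse squamous cell carcinoma (SCC) cells. A row was found for 8 of the 10 genes, and none of the 19044 identifiers analysed here belonged to Cdkn2a or Cdkn2b. All cells derived from skin tumours raised chemically (DMBA followed by TPA) in FVB mice that carried K14CreER and FAK flox/flox. K14CreER is a tamoxifen-inducible Cre recombinase placed under a keratin promoter, and FAK (focal adhesion kinase, encoded by Ptk2) had been deleted from the cultured cells with 4-hydroxytamoxifen. The 3 cell lines were FAK-/- cells, FAK-WT-expressing cells, in which wild-type FAK was put back by retrovirus, and FAK-kd-expressing cells, in which a kinase-deficient point mutant was put back. Both re-expressing lines were made from 1 FAK-/- clone and selected with hygromycin, so each cell line stands for a single derivation. In every comparison with FAK-/- cells, FAK cannot be told apart from the retrovirus and selection that both re-expressing lines share. There were 3 libraries per cell line, described in the design as biological replicates.

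p53 is a transcription factor that is kept low in unstressed cells because Mdm2, itself a p53 target, tags it for degradation. When the protein accumulates it switches on genes that arrest the cell cycle (Cdkn1a, which encodes p21), that feed back on p53 (Mdm2, Ccng1) and that promote apoptosis (Bax, Bbc3). FAK that enters the nucleus can bind p53 and promote its turnover through Mdm2, and it has been tied to Cdkn1a expression. The comparisons below therefore asked whether the RNA of p53 and of its targets differed with the presence of FAK and of FAK kinase activity. Only RNA was measured, and p53 protein was not.

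The stretches of DNA that match letters of the p53 consensus are shown first, since the results turn on target genes of this factor. All 10 genes had a RefSeq promoter in build GRCm38.p6, running from 250 bases before the start of transcription to 50 bases after it, and 15 start sites were covered. The 10-base p53 consensus half-site, searched on both strands, was present before the start of 5 of the 10 genes, against 9.55% of all 27025 genes with such a window. By window it was in 5 of the 15, against 8.36% of all 32851 windows. It lay in the windows of Trp53, Mdm2, Cdkn1a, Ccng1 and Bax, and its letters were not in the windows of Cdkn2a, Cdkn2b, Bbc3, Sesn2 or Gdf15. In the lines below capitals mark the match and 20 bases are shown on each side.
Mdm2, chr10:117710915-117710964, minus strand: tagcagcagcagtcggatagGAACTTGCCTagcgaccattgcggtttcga
Ccng1, chr11:40755442-40755491, minus strand: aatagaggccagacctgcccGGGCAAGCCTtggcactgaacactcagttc
Bax, chr7:45467070-45467119, minus strand: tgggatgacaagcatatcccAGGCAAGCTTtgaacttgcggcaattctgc
Trp53, chr11:69580264-69580313, plus strand: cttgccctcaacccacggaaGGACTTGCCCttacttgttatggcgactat
The match began 186 bases before the start site in Mdm2, 185 in Ccng1, 201 in Bax and 75 in Trp53.

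Cdkn1a was the only one of the 10 genes whose window held the palindromic core CATGNNNNNNCATG, which was found in 0.833% of all genes. By window it was in 1 of the 15, against 0.712% of all windows. It is printed here because Cdkn1a is the gene reported to be regulated when nuclear FAK binds p53, and capitals mark the core.
Cdkn1a, chr17:29090911-29090964, plus strand: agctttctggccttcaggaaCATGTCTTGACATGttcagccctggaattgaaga
This core began 48 bases before the upstream of the gene's start sites, and the other start, 2790 bases downstream, had no match in its window. The same window also held 2 matches to the consensus half-site, 73 and 51 bases before the start, and the nearer of them overlapped the core. A match to these letters is a description of the sequence, and binding of p53 was not measured in these data.

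The depth of the libraries bears on how precisely each gene was measured. FAK-WT replicate 1 held 779755 counts, 2.31% of the median of the other 8 libraries, which held between 25304994 and 37264636. A floor of 3 counts corresponds to 3.85 CPM in that library (CPM is the read count relative to library size, here TMM-normalised), and such floors cover counting error only. Ptk2 followed the labels, with mean levels of 215 CPM (FAK-WT), 21.6 CPM (FAK-/-) and 163 CPM (FAK-kd). Its FAK-kd libraries held 155 to 176 CPM, below the 213 to 216 CPM of FAK-WT libraries. These 2 lines thus differed in Ptk2 RNA as well as in the kinase mutation, and its part in the results was not tested. The SCC label was not borne out by keratinocyte markers: Krt5, Krt14, Cdh1 and Dsp were at or near 0 in all 9 libraries and no marker of the 6 with a row exceeded 1.38 CPM. Among 6 leukocyte, endothelial and fibroblast markers with a row, the summed level ranged from 11.3 to 16.3 CPM in FAK-WT, from 30.6 to 37.0 in FAK-/- and from 20.1 to 31.7 CPM in FAK-kd libraries. Most of this was the fibroblast marker Pdgfra, at 10.1 to 11.7 CPM in FAK-WT, 26.8 to 33.5 in FAK-/- and 18.3 to 28.4 CPM in FAK-kd libraries. The fibroblast marker Dcn did not share this order, with means of 0.294 CPM in FAK-WT, 0.0819 in FAK-/- and 0.347 CPM in FAK-kd cells. Lum, also a fibroblast marker, had no row. The macrophage marker Cd68 reached 3.17 CPM, the endothelial marker Cdh5 was at 1.24 to 1.97 CPM in FAK-WT cells (43 to 74 counts in the deep libraries) and at most 0.18 CPM elsewhere, and Ptprc and Pecam1 stayed below 1 CPM. The part of this difference in the results below was not tested, and in bulk RNA a change in the number of expressing cells and a change per cell cannot be told apart. FAK-/- replicate 3 stood apart from the other FAK-/- libraries for several of the genes, and values without it are given for these.

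All tests below used edgeR's quasi-likelihood test on the 19044 genes of all 9 libraries, with p-values adjusted by Benjamini-Hochberg over all genes. The 3 groups share 1 estimate of spread, so leaving out a library can also move adjusted p in comparisons without it. A gene passed on adjusted p where that value was 0.05 or below, and it met both criteria where its log2 fold change was also 1 or more in size. Counts of genes are given over those with a mean of at least 1 CPM, 10912 in all and 7 of the 8 genes with a row. The gene that missed this level was Gdf15. Positive log2 fold changes are higher in the first cell line named.

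Trp53 RNA did not pass in any comparison, while 4 of the genes p53 is known to activate had more RNA in FAK-WT cells than in the FAK-/- line. These were Mdm2, Cdkn1a, Ccng1 and Sesn2, with fold changes between 1.37 and 2.13. Against FAK-kd cells the same 4 genes and Bax were higher in FAK-WT cells. Between FAK-kd and FAK-/- cells, Ccng1 was higher and Bbc3 lower in FAK-kd cells. Only Ccng1 reached both criteria, and only in FAK-WT against FAK-/- cells. On adjusted p alone, 12.0% of all genes were higher and 15.7% lower when FAK-WT was set against FAK-/- cells, beside 4 and 0 of these 7 genes. The shares for FAK-WT against FAK-kd cells were 11.0% higher and 16.3% lower, beside 5 and 0 of the 7. For FAK-kd against FAK-/- cells they were 6.48% and 6.02%, beside 1 and 1 of the 7. With the fold criterion added, 2.11% of all genes were higher and 3.68% lower against FAK-/- cells, beside 1 and 0. The corresponding shares were 1.93% and 3.62% against FAK-kd cells and 1.15% and 1.16% for FAK-kd against FAK-/- cells, where none of the 7 genes reached both criteria.

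**Figure D1:**
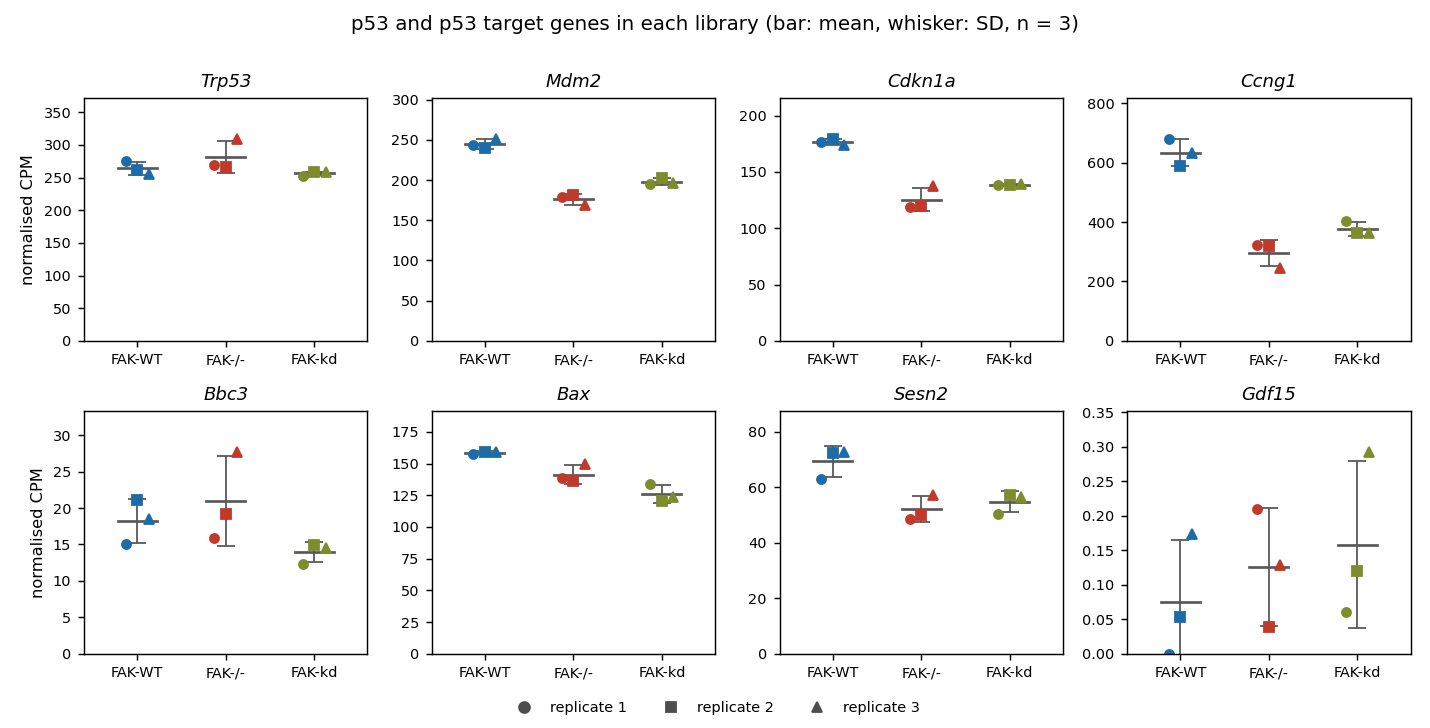
Normalised CPM (vertical axes, from 0) of the 8 genes with a row in each of the 9 libraries, by cell line, with the mean as a bar and the SD as a whisker (n = 3, whiskers of Gdf15 end at the axis). Mdm2, Cdkn1a, Ccng1, Bax and Sesn2 are higher in all 3 FAK-WT libraries than in any other library, Trp53 is level, and Gdf15 is near 0 throughout.

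Trp53 (chromosome 11, 69580359 to 69591873, plus strand, GRCm38) encodes p53. Its level was 276, 261 and 255 CPM in FAK-WT replicates 1 to 3, 269, 266 and 310 CPM in FAK-/- and 253, 258 and 258 CPM in FAK-kd libraries. FAK-WT libraries overlapped both other groups, and the single high value was FAK-/- replicate 3. The means were 264 ± 10.6 (SD, n = 3), 282 ± 24.5 and 256.4 ± 2.75 CPM. For FAK-WT against FAK-/- cells the log2 fold change was -0.10 (SE 0.07, 95% interval -0.26 to 0.05, adjusted p = 0.399) and 0.03 (SE 0.07, adjusted p = 0.825) against FAK-kd cells. FAK-kd against FAK-/- cells gave -0.14 (SE 0.07, 95% interval -0.28 to 0.02, adjusted p = 0.304), so differences in Trp53 RNA beyond these intervals were not seen. Without FAK-/- replicate 3 the values against FAK-/- cells were -0.04 for FAK-WT and -0.06 for FAK-kd cells, and neither passed (adjusted p = 0.689 and 0.55). About 10.2% of the 31-base words of Trp53 transcripts also occur in another gene, mostly its processed pseudogene Trp53-ps, which has no row among the genes analysed here.

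Mdm2 (chromosome 10, 117688875 to 117710758, minus strand) encodes the ligase that marks p53 for degradation. It was at 244, 240 and 252 CPM in FAK-WT, 179, 182 and 169 CPM in FAK-/- and 195, 203 and 196 CPM in FAK-kd libraries. All FAK-WT libraries lay above all others, and the FAK-kd libraries lay above the FAK-/- ones. Mean levels were 245 ± 6.09, 176 ± 6.87 and 198 ± 4.29 CPM (SD, n = 3). FAK-WT cells exceeded FAK-/- cells by a log2 fold change of 0.48 (SE 0.06, adjusted p = 7.62e-05) and FAK-kd cells by 0.31 (SE 0.06, adjusted p = 0.00289). Although the groups did not overlap, the step from FAK-/- to FAK-kd cells did not pass, with a log2 fold change of 0.17 (SE 0.06, 95% interval 0.03 to 0.30, adjusted p = 0.128).

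Cdkn1a (chromosome 17, 29090976 to 29100727, plus strand) encodes p21, which binds and inhibits cyclin-CDK complexes. The FAK-WT libraries held 176, 180 and 174 CPM. FAK-/- libraries held 119, 120 and 137 CPM and FAK-kd libraries 138.2, 138.1 and 139.1 CPM. FAK-WT cells were thus above every other library, and FAK-/- replicate 3 came close to the FAK-kd level. FAK-WT exceeded FAK-/- cells by a log2 fold change of 0.50 (SE 0.07, adjusted p = 0.000131), a fold of 1.41, and FAK-kd cells by 0.35 (SE 0.07, adjusted p = 0.00226), a fold of 1.28. FAK-kd against FAK-/- cells gave 0.14 (SE 0.07, adjusted p = 0.252). Without FAK-/- replicate 3 this last value was 0.21 and passed (adjusted p = 0.00633). An annotated gene on the opposite strand, AC167363.2, overlaps Cdkn1a exons and shares most of the 9.78% of its 31-base words found elsewhere. The library kit did not mark strand, so reads from the pair cannot be told apart, and AC167363.2 has no row here.

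Ccng1 (chromosome 11, 40748552 to 40755311, minus strand) encodes cyclin G1, a p53 target that recruits a phosphatase acting on Mdm2. Its libraries read 681, 589 and 632 CPM in FAK-WT, 323, 319 and 245 CPM in FAK-/- and 405, 362 and 362 CPM in FAK-kd cells. The 3 groups did not overlap, with FAK-WT highest and FAK-/- lowest, and FAK-/- replicate 3 was the lowest library of all. Mean levels were 634 ± 45.9, 296 ± 43.6 and 376 ± 24.8 CPM (SD, n = 3). Against FAK-/- cells the FAK-WT level gave a log2 fold change of 1.09 (SE 0.10, adjusted p = 1.25e-06), a fold of 2.13, and against FAK-kd cells 0.75 (SE 0.10, adjusted p = 5.82e-05). Ccng1 was also higher in FAK-kd cells than in the FAK-/- line, by 0.35 (SE 0.10, adjusted p = 0.0374). Without FAK-/- replicate 3 the first value was 0.97 (adjusted p = 3.24e-10), under the fold criterion, and the last was 0.23 (adjusted p = 0.0142). The last did not pass without FAK-kd replicate 1 (adjusted p = 0.158), 2 (0.0861) or 3 (0.118), nor without FAK-WT replicate 2 (0.055) or 3 (0.0597).

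Sesn2 (chromosome 4, 132492032 to 132510501, minus strand) encodes sestrin 2, a stress protein that restrains mTORC1 and is induced by p53 and by ATF4. It was at 62.9, 72.4 and 72.8 CPM in FAK-WT, 48.7, 49.96 and 57.3 CPM in FAK-/- and 50.4, 57.2 and 56.6 CPM in FAK-kd libraries. The FAK-WT libraries were the highest, and the FAK-/- and FAK-kd libraries overlapped. Sesn2 exceeded the FAK-/- level by a log2 fold change of 0.45 (SE 0.09, adjusted p = 0.00256) and the FAK-kd level by 0.38 (SE 0.09, adjusted p = 0.00849). The latter no longer passed without FAK-WT replicate 2 (adjusted p = 0.0706) or replicate 3 (adjusted p = 0.0776), where the shallow replicate 1 made up 1 of the remaining 2 libraries. FAK-kd against FAK-/- cells gave 0.07 (SE 0.09, 95% interval -0.11 to 0.26, adjusted p = 0.661), and 0.15 (adjusted p = 0.174) without FAK-/- replicate 3.

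Bax and Bbc3 encode members of the BCL2 family that promote apoptosis. Bax (chromosome 7, 45461697 to 45466898, minus strand), which forms pores in the mitochondrial outer membrane, was at 157, 159.1 and 159.5 CPM in FAK-WT, 139, 136 and 149 CPM in FAK-/- and 134, 120 and 124 CPM in FAK-kd libraries. FAK-kd libraries were the lowest, and the FAK-WT libraries lay above all others. FAK-WT exceeded FAK-kd cells by a log2 fold change of 0.33 (SE 0.07, adjusted p = 0.00301). Against FAK-/- cells it was 0.17 (SE 0.07, adjusted p = 0.116), and without FAK-/- replicate 3 it was 0.21 and passed (adjusted p = 0.01). FAK-kd against FAK-/- cells gave -0.17 (SE 0.07, adjusted p = 0.164). The annotated gene Gm45808 overlaps Bax exons and accounts for most of the 11.1% of its 31-base words that occur elsewhere, and it has no row here.

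Bbc3 (chromosome 7, 16308393 to 16318205, plus strand) encodes PUMA, which releases Bax from its inhibitors. It was at 15.1, 21.1 and 18.5 CPM in FAK-WT, 15.9, 19.2 and 27.8 CPM in FAK-/- and 12.4, 15.0 and 14.6 CPM in FAK-kd libraries. FAK-/- replicate 3 was the highest library and FAK-WT replicate 1 rested on 12 counts. Bbc3 was lower in FAK-kd cells than in the FAK-/- line, by a log2 fold change of -0.59 (SE 0.16, adjusted p = 0.0383). Without FAK-/- replicate 3 this was -0.32 and did not pass (adjusted p = 0.0604). FAK-WT against FAK-/- cells gave -0.11 (SE 0.17, adjusted p = 0.722), which became 0.16 (adjusted p = 0.384) without that library. FAK-WT against FAK-kd cells gave 0.47 (SE 0.17, adjusted p = 0.0779), which passed without it (0.49, adjusted p = 0.00115). FAK-/- replicate 3 is in neither of these 2 groups and enters only through the shared estimate of spread. Without it, genes passing on adjusted p in this comparison rose from 3376 to 5355 of all 19044.

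Gdf15 (chromosome 8, 70629393 to 70632456, minus strand), a secreted stress cytokine, was barely detected. The counts were 0, 2 and 6 in FAK-WT, 7, 1 and 4 in FAK-/- and 2, 4 and 10 in FAK-kd libraries. These values overlap and straddle the floor of 3 counts, so no fold is given, and a difference was not detectable at this depth (adjusted p = 0.922, 0.735 and 0.898 in the 3 comparisons).

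**Figure D2:**
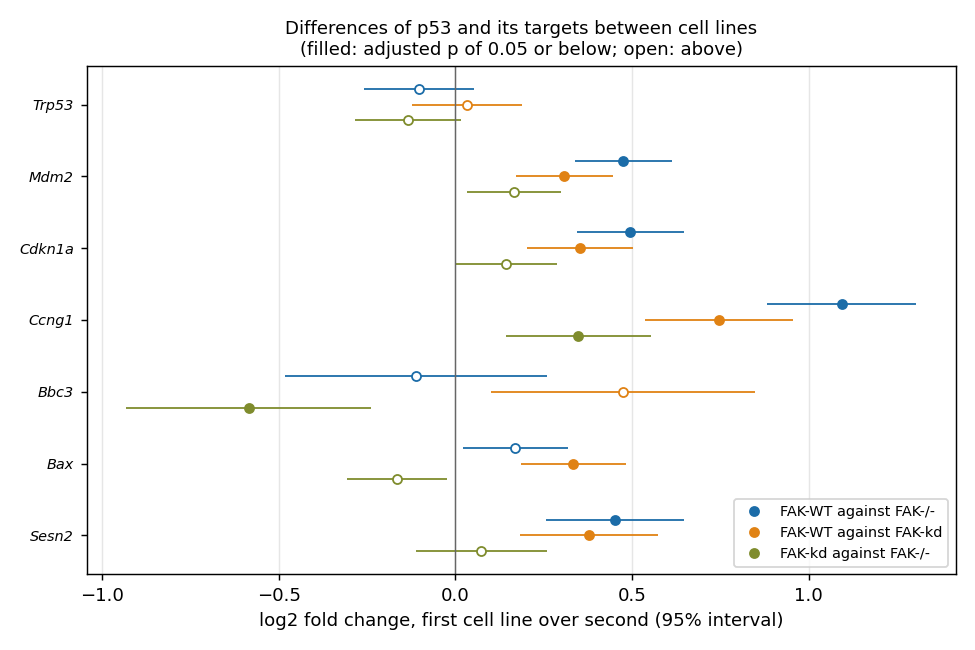
Log2 fold changes (horizontal axis, first cell line over the second) with 95% intervals for the 7 genes with a mean of at least 1 CPM, in 3 comparisons; filled points passed on adjusted p. In FAK-WT against FAK-/- cells the values run from -0.11 (Bbc3) to 1.09 (Ccng1), and the intervals for Trp53 include 0 in each comparison.

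Across the 7 genes the median log2 fold change was 0.45 for FAK-WT against FAK-/- cells, 0.35 against FAK-kd cells and 0.07 for FAK-kd against FAK-/- cells. Over all 10912 genes the medians were -0.02, -0.02 and 0.01. The groups did not overlap for 5, 6 and 6 of the 7 genes, against 44.2%, 50.2% and 36.4% of all genes in the same comparisons. The order FAK-WT, FAK-kd, FAK-/- from high to low held for the means of 4 of the 7 genes (Mdm2, Cdkn1a, Ccng1 and Sesn2), and FAK-kd cells were lowest for the other 3. The comparisons share libraries with one another and are not separate lines of evidence. Per kilobase of exon, levels in FAK-WT cells were in the order Ccng1 (181 CPM per kb), Bax (101), Trp53 (65.3), Cdkn1a (49.7), Mdm2 (48.2), Sesn2, Bbc3 (8.58) and Gdf15 (0.0407). Cdkn1a and Mdm2 were neighbours within 0.1 CPM per kb in FAK-kd cells (39.0 and 38.9). In FAK-/- cells Ccng1 (84.2) was below Bax (89.7), a gap smaller than the spread of Ccng1 between those libraries.

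Cdkn2a and Cdkn2b, neighbours on chromosome 4, encode p16INK4a and p15INK4b, which inhibit Cdk4 and Cdk6, and Cdkn2a also encodes p19ARF, which blocks Mdm2. Neither had a row among the identifiers analysed here, and the authors had removed genes without counts, so whether the libraries held no reads from them or the rows are missing for another reason cannot be told from the table. The surrounding genes were therefore listed from the GRCm38 annotation. Of 40 protein-coding genes that reach within 1000000 bases of Cdkn2a, 23 had a row and 17, Mtap among them, had none. Klhl9 and Focad exceeded 100 counts in a library. Klhl9, a ubiquitin ligase adaptor, had 3288 to 4389 counts in the 8 deep libraries. In the 957 kb between Klhl9 and Dmrta1 on the far side of Cdkn2b no gene exceeded 83 counts, and most belong to the type I interferon cluster, which resting cells express little. Dmrta1, the first gene beyond Cdkn2b, had 0 to 4 counts. All 3 cell lines shared this pattern, and the DNA of the locus was not measured.

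**Figure D3:**
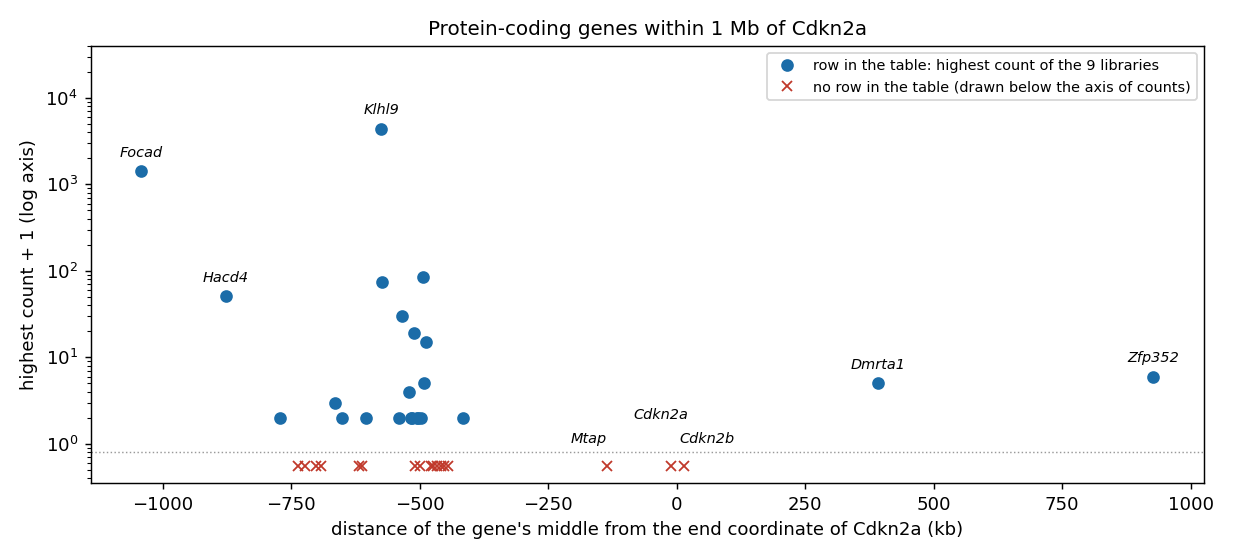
Highest count over the 9 libraries plus 1 (vertical log axis) for the 40 protein-coding genes that reach within 1000000 bases of Cdkn2a, against the distance of the gene's middle from Cdkn2a in kb; crosses mark the 17 genes with no row and carry no count. Klhl9 and Focad stand highest, and Mtap, Cdkn2a and Cdkn2b are crosses.

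Transcripts of 10 regulators of Cdkn2a were all above 1 CPM. In FAK-WT cells 1 was higher and 2 lower than in FAK-/- cells, the counts against FAK-kd cells were 0 higher and 2 lower, and none passed in FAK-kd against FAK-/- cells (2 at an unadjusted p under 0.05, 1 by DESeq2). With 12.0% of all genes higher and 15.7% lower in the first comparison and 11.0% and 16.3% in the second, these shares of the 10 were near the background. In the third comparison 6.48% of all genes were higher and 6.02% lower. The 2 lower against FAK-kd cells became 0 without FAK-WT replicate 2 or FAK-kd replicate 2 and 1 without FAK-WT replicate 3. Against FAK-/- cells the 1 higher was lost without FAK-WT replicate 2 or 3 or FAK-/- replicate 1, 1 of the 2 lower was lost without FAK-WT replicate 2, and against FAK-kd cells 2 were higher without FAK-/- replicate 3. The 2 lower genes were Cbx7, a Polycomb protein that silences Cdkn2a (log2 fold change -0.69, adjusted p = 0.00334 against FAK-/- cells and -0.62, adjusted p = 0.00667 against FAK-kd cells), and Hmga2, a chromatin protein that represses it (-0.25, adjusted p = 0.0062 and -0.21, adjusted p = 0.0165).

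Of 4 further CDK inhibitors, Cdkn2c and Cdkn1b were lower in FAK-WT cells, where Cdkn1a was higher. Cdkn2c, which encodes p18INK4c, was at 52.9, 57.2 and 57.4 CPM in FAK-WT, 116, 117 and 150 CPM in FAK-/- and 114, 122 and 116 CPM in FAK-kd libraries. It was lower in FAK-WT cells by a log2 fold change of -1.17 (SE 0.10, adjusted p = 5.42e-07) against FAK-/- and -1.05 (SE 0.10, adjusted p = 1.78e-06) against FAK-kd cells, and both values met both criteria. Cdkn1b, which encodes p27, was lower as well (-0.73, adjusted p = 8.83e-06, and -0.51, adjusted p = 0.000264). Its FAK-WT libraries held 42.8, 44.1 and 47.3 CPM, below all FAK-kd (62.3 to 66.0) and FAK-/- libraries (72.3 to 79.4). Cdkn2d varied from 0 to 4.61 CPM within groups and did not pass, and Cdkn1c had no row. None of the 3 inhibitors measured here passed between FAK-kd and FAK-/- cells (1 at an unadjusted p under 0.05). In FAK-WT cells 2 of the 3 were lower and 0 higher in each comparison. Of all genes, 12.0% were higher and 15.7% lower against FAK-/- cells, and 11.0% and 16.3% against FAK-kd cells. For FAK-kd against FAK-/- cells the shares were 6.48% and 6.02%.

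**Figure D4:**
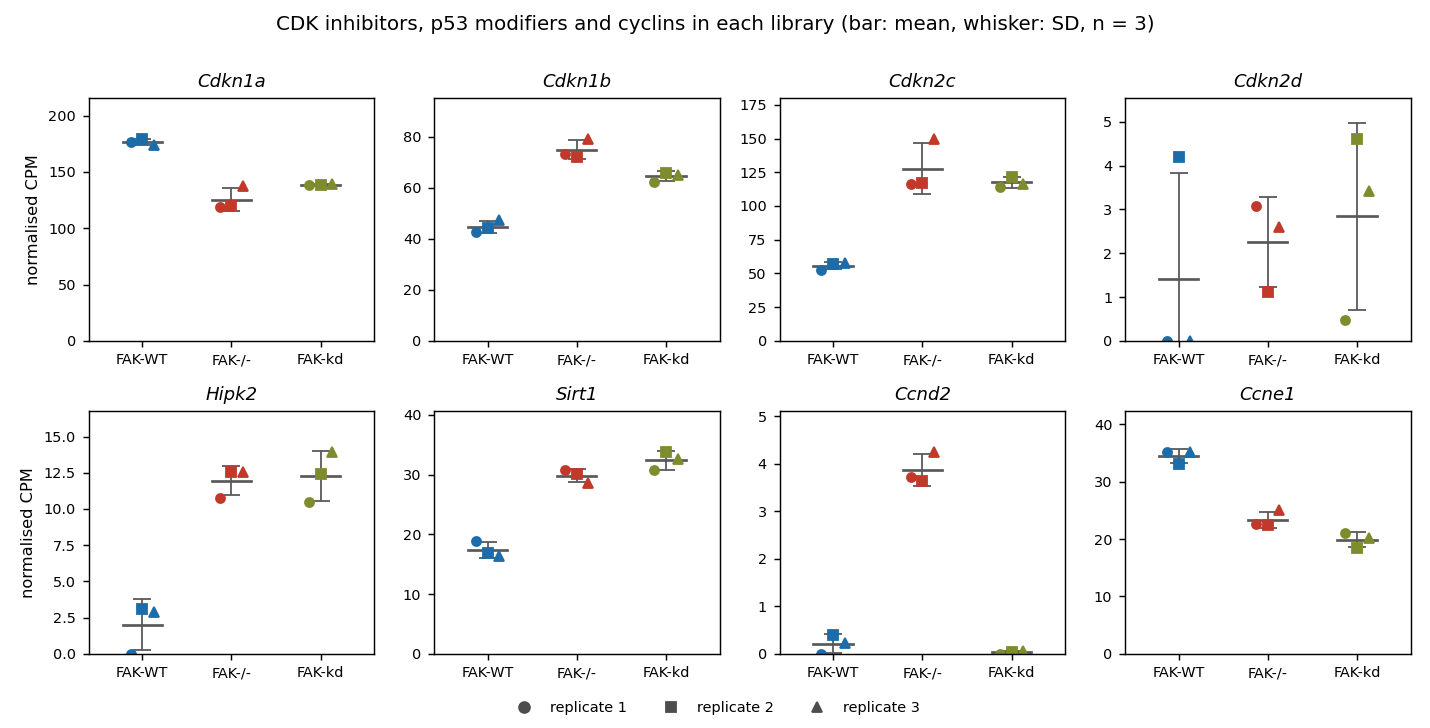
Normalised CPM (vertical axes, from 0) of CDK inhibitors, modifiers of p53 and cyclins in each library, with the mean as a bar and the SD as a whisker (n = 3, whiskers that pass 0 end at the axis). Cdkn1a and Ccne1 are highest in FAK-WT cells, Cdkn1b, Cdkn2c, Hipk2 and Sirt1 are lowest there, and Ccnd2 is seen mainly in FAK-/- cells.

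A list of 36 further p53 targets was examined, of which 34 had a row and 30 a mean of at least 1 CPM. In FAK-WT against FAK-/- cells 15 of the 30 were higher on adjusted p and 1 lower, against 12.0% and 15.7% of all genes, with a median log2 fold change of 0.22. Without FAK-WT replicate 1 the count of higher genes was 14, without FAK-/- replicate 3 it was 17, and without both it was 17. Over all 19044 genes, those passing in either direction went from 3422 to 3362, 4393 and 4843 in the same order. The 1 lower gene became 0 without FAK-WT replicate 2 and 3 without FAK-/- replicate 3. Psrc1, Ephx1, Btg2 and Plk2 were higher by both criteria. In FAK-WT against FAK-kd cells 6 were higher and 5 lower with a median of 0.07, beside 11.0% and 16.3% of all genes. The 5 lower became 0 without FAK-WT replicate 2, 1 without FAK-kd replicate 3, 2 or 3 without each of FAK-WT replicates 1 and 3, FAK-/- replicates 1 and 2 and FAK-kd replicate 2, and 3 with DESeq2. FAK-kd against FAK-/- cells gave 10 higher and 0 lower (21 in either direction at an unadjusted p under 0.05, and 10 and 0 by DESeq2) with a median of 0.20, beside 6.48% and 6.02% of all genes. Without FAK-WT replicate 1 and FAK-/- replicate 3 the last counts were 16 and 0, and without FAK-kd replicate 2 or 3 they were 6 and 0. Over all 19044 genes, those passing in this comparison went from 1494 to 2776 without the first 2 libraries. Without FAK-kd replicate 2 or 3 they were 761 and 712. FAK-kd cells had the highest mean of the 3 lines for 11 of the 30 genes and none of the 7 genes above, and lay between the other lines for 16.

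Psrc1, which encodes a microtubule-binding protein repressed or induced by p53 depending on the cell, was at 62.9, 48.5 and 47.0 CPM in FAK-WT, 19.1, 18.1 and 25.7 CPM in FAK-/- and 38.8, 36.3 and 33.2 CPM in FAK-kd libraries. The 3 groups did not overlap, and FAK-WT exceeded FAK-/- cells by a log2 fold change of 1.25 (SE 0.14, adjusted p = 1.02e-05). Ephx1, the microsomal epoxide hydrolase, was at 213, 189 and 195 CPM in FAK-WT, 92.5, 91.9 and 85.7 CPM in FAK-/- and 173, 165 and 168 CPM in FAK-kd libraries. Its FAK-kd level was close to the FAK-WT level: log2 fold changes were 1.13 for FAK-WT against FAK-/-, 0.91 for FAK-kd against FAK-/- (adjusted p = 5.11e-07) and 0.22 for FAK-WT against FAK-kd cells (adjusted p = 0.0364). Plk2, a polo-like kinase, showed the other pattern. It was at 68.0, 63.4 and 62.9 CPM in FAK-WT, 30.4, 32.1 and 31.7 CPM in FAK-/- and 39.8, 30.4 and 32.4 CPM in FAK-kd libraries. FAK-WT was higher than both (1.03, adjusted p = 5.4e-06 and 0.90, adjusted p = 1.86e-05), and FAK-kd and FAK-/- overlapped (0.12, 95% interval -0.09 to 0.34, adjusted p = 0.555).

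Btg2, an antiproliferative regulator of mRNA decay, was at 10.1, 6.41 and 6.08 CPM in FAK-WT and 2.55, 3.55 and 3.39 CPM in FAK-/- cells, and the first value rested on 8 counts. Its log2 fold change of 1.06 (SE 0.20, adjusted p = 0.00135) became 0.99 (adjusted p = 0.0013) without that library. The 1 target lower in FAK-WT cells than in the FAK-/- line was the growth-arrest gene Gadd45a (-0.62, SE 0.13, adjusted p = 0.00333), named after its values were seen. Its libraries held 10.9 to 13.6 CPM in FAK-WT and 17.0 to 20.6 CPM in FAK-/- cells. Pmaip1, which encodes NOXA, a further activator of apoptosis, was also named after its values were seen and was under 1 CPM on average. It had 0, 2 and 1 counts in FAK-WT, 12, 16 and 11 in FAK-/- and 31, 46 and 49 in FAK-kd libraries, so that FAK-WT cells were at or under the floor of 3 counts while Mdm2, Cdkn1a and Ccng1 were highest there.

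**Figure D5:**
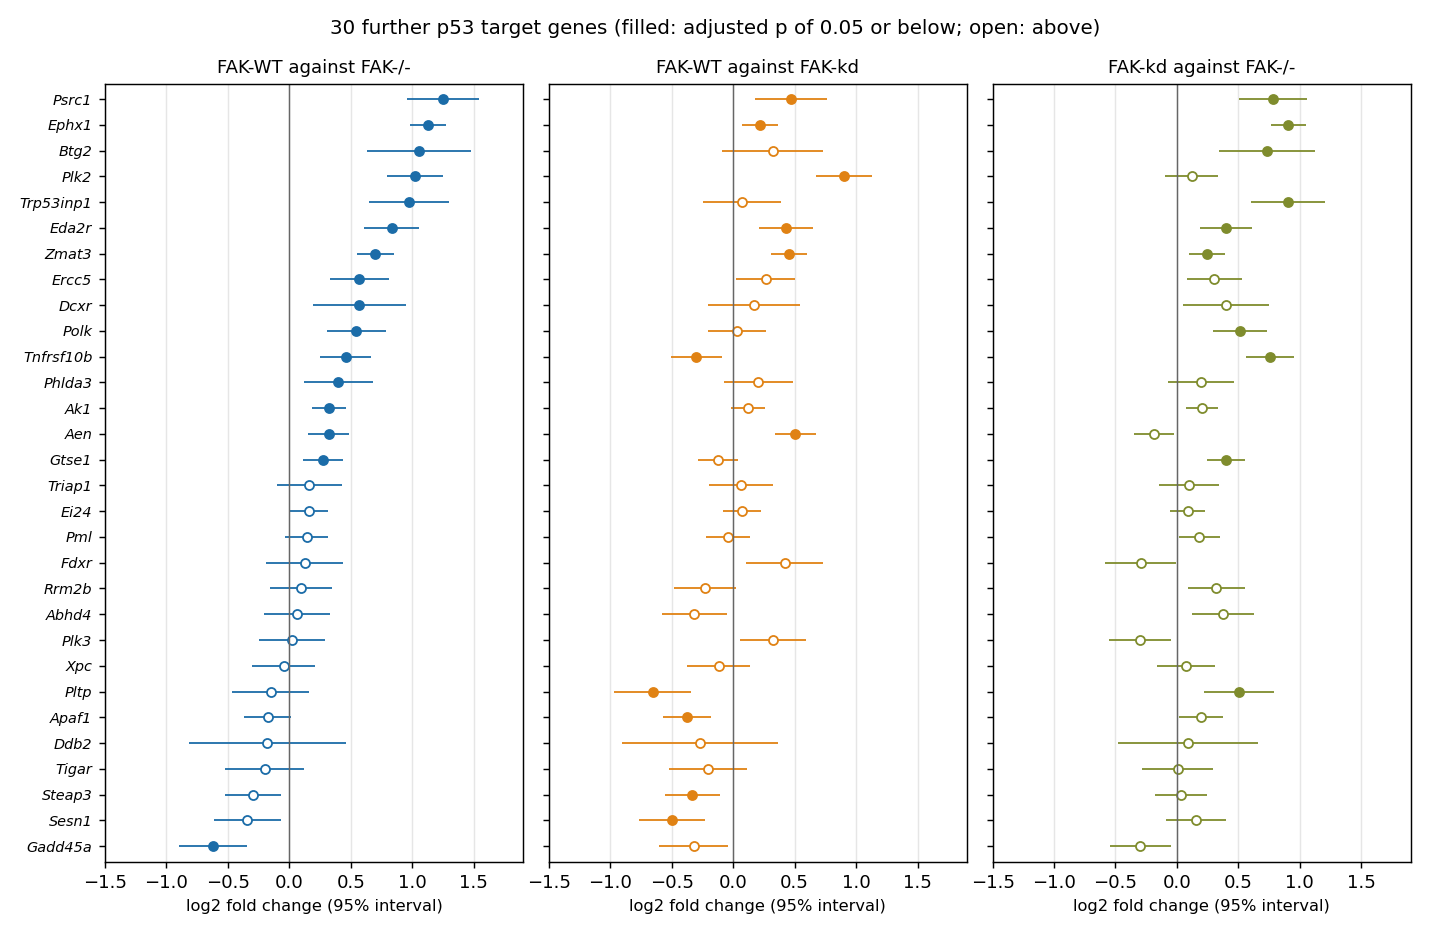
Log2 fold changes with 95% intervals (horizontal axes) of the 30 further p53 targets with a mean of at least 1 CPM in the 3 comparisons, ordered by the first; filled points passed on adjusted p. In FAK-WT against FAK-/- cells 15 filled points lie to the right of 0 and 1, Gadd45a, to the left.

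The p53 half-site was found in the promoter windows of 8 of the 27 further targets that had a window, against 9.55% of all genes. By window it was in 9 of 39, against 8.36% of all windows. The core CATGNNNNNNCATG was in 0 of the 27, against 0.833% of all genes. The 4 further targets higher by both criteria each had a window, and their windows did not hold the half-site letters.

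Among 15 regulators of p53, all above 1 CPM, 3 fell below the FAK-/- level in FAK-WT cells and 4 below the FAK-kd level, and 0 were higher (7 in either direction at an unadjusted p under 0.05 in each comparison). These stand beside 15.7% and 16.3% of all genes lower and 12.0% and 11.0% higher. The median log2 fold changes of the list were -0.04 and 0.04. DESeq2 gave 2 and 4 lower and 0 higher. Against FAK-/- cells 1 was higher without FAK-/- replicate 2, and against FAK-kd cells 1 was higher without FAK-/- replicate 3 and 2 were lower without FAK-WT replicate 2. In FAK-kd against FAK-/- cells 0 were higher and 0 lower (2 at an unadjusted p under 0.05), beside 6.48% and 6.02% of all genes. Without FAK-WT replicate 1 and FAK-/- replicate 3 these counts were 2 and 1. Hipk2, a kinase that phosphorylates p53 to favour its apoptotic targets, was at 0, 3.11 and 2.91 CPM in FAK-WT, 10.8, 12.5 and 12.5 CPM in FAK-/- and 10.5, 12.4 and 14.0 CPM in FAK-kd libraries. The value of 0 is in FAK-WT replicate 1, where the floor is 3.85 CPM. Hipk2 had a log2 fold change of -2.03 (SE 0.19, adjusted p = 2.4e-06) against FAK-/- and -2.07 (SE 0.19, adjusted p = 2e-06) against FAK-kd cells, and without FAK-WT replicate 1 it was -1.99 and -2.03. Sirt1, a deacetylase that dampens p53, was lower by -0.83 (adjusted p = 1.78e-05) and -0.95 (adjusted p = 4.78e-06). The checkpoint kinase gene Chek2 passed in both comparisons and Chek1 against FAK-kd cells. The Mdm2 partner Mdm4 and the p53 phosphatase Ppm1d did not pass in any comparison. Wrap53, which shares the Trp53 promoter region on the other strand, was at 7.55 to 17.5 CPM and did not pass either (adjusted p = 0.972 for FAK-WT against FAK-/- cells). Of the p53 family, Trp63 had no row and Trp73 had no more than 0.03 CPM in a library.

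Downstream of the CDK inhibitors, 12 cyclin D, cyclin E, CDK and RB genes were mixed. FAK-WT cells had 2 higher and 4 lower against FAK-/- cells and 3 higher and 4 lower against FAK-kd cells, and in FAK-kd against FAK-/- cells 0 were higher and 2 lower. The shares of all genes were 12.0% and 15.7%, 11.0% and 16.3%, and 6.48% and 6.02%. The 4 lower genes became 2 in both FAK-WT comparisons without FAK-WT replicate 2 or 3, and the 3 higher against FAK-kd cells became 5 without FAK-/- replicate 3. Ccnd2, which encodes cyclin D2, was at 3.72, 3.63 and 4.26 CPM in FAK-/- cells and at 0, 0.399 and 0.231 CPM in FAK-WT cells. FAK-kd libraries had 0, 1 and 2 counts of it, under the floor of 3. Ccnd2 was therefore lower in both re-expressing lines than in FAK-/- cells (adjusted p = 1.43e-05 and 4.62e-07). As in every comparison with FAK-/- cells, FAK and the retrovirus and hygromycin selection that both lines share cannot be told apart here. The mean of Ccnd2 was 0.210 CPM in FAK-WT and 0.030 CPM in FAK-kd cells. It was the 1 gene of the list higher by both criteria in FAK-WT than in FAK-kd cells. That call rested on 0, 15 and 8 counts against 0, 1 and 2. Ccne1, which encodes cyclin E1, the partner of the Cdk2 that p21 inhibits, was higher in FAK-WT cells by 0.55 (SE 0.10, adjusted p = 0.000798) and 0.78 (SE 0.10, adjusted p = 3.22e-05).

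Of 15 proliferation genes, 3 were lower and 0 higher in FAK-WT cells than in the FAK-/- line, 4 lower and 0 higher than in FAK-kd cells, and none passed between FAK-kd and FAK-/- cells (2 at an unadjusted p under 0.05, 1 by DESeq2). Of all genes 15.7% and 16.3% were lower and 12.0% and 11.0% higher in the FAK-WT comparisons. For FAK-kd against FAK-/- cells 6.48% of all genes were higher and 6.02% lower. The medians of the list in the FAK-WT comparisons were -0.06 and -0.05. Without FAK-/- replicate 3, 1 was higher in FAK-WT than in FAK-kd cells. The lower genes included Cdk1, the mitotic kinase (-0.34, adjusted p = 0.00374 and -0.49, adjusted p = 0.000185), and Aurkb (-0.46, adjusted p = 0.000288 and -0.43, adjusted p = 0.000483). The summed level of the list was 3531 to 3652 CPM in FAK-WT, 3733 to 3845 in FAK-/- and 3873 to 3999 CPM in FAK-kd libraries. These sums did not overlap. Taken singly, 8, 7 and 5 of the 15 genes did not overlap in the 3 comparisons (FAK-WT against FAK-/-, FAK-WT against FAK-kd, FAK-kd against FAK-/-). The shares of all genes were 44.2%, 50.2% and 36.4%.

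Beside Bax and Bbc3, 9 of 12 other BCL2 family genes were above 1 CPM. The counts in FAK-WT cells were 4 higher and 3 lower against FAK-/- cells and 3 and 3 against FAK-kd cells, beside 12.0% and 15.7% and 11.0% and 16.3% of all genes. The 4 higher became 1 without FAK-WT replicate 2 or 3 and 2 without FAK-/- replicate 1 or FAK-kd replicate 2 or 3, and the 3 higher against FAK-kd cells became 1 without FAK-WT replicate 2 or 3. None passed in FAK-kd against FAK-/- cells (0 at an unadjusted p under 0.05), beside 6.48% of all genes higher and 6.02% lower. Bak1, the other pore former, was higher in FAK-WT cells (0.41, adjusted p = 0.000568 and 0.52, adjusted p = 6.93e-05), as was Bax against FAK-kd cells, while Bok, which is related to them, was lower (-0.78, adjusted p = 5.22e-05 and -0.75, adjusted p = 7.42e-05).

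Since Sesn2 and Gdf15 also respond to the integrated stress response, 12 genes of the ATF4 programme were counted, all above 1 CPM. FAK-WT cells had 4 higher and 1 lower against FAK-/- cells, 5 and 2 against FAK-kd cells, and in FAK-kd against FAK-/- cells 1 and 1. All genes gave 12.0% and 15.7%, 11.0% and 16.3%, and 6.48% and 6.02% in the same order. The median log2 fold changes of the list were 0.24, 0.25 and -0.10. The single lower gene against FAK-/- cells was lost in FAK-WT cells without FAK-WT replicate 2 or 3 or FAK-kd replicate 3, and in FAK-kd cells without any 1 library other than FAK-WT replicate 1 or FAK-/- replicate 3. Phgdh, the entry enzyme of serine synthesis, was higher in FAK-WT cells (0.48, adjusted p = 9.61e-05 and 0.67, adjusted p = 3.91e-06). Nupr1, a stress-induced chromatin protein, was at 15.1 to 20.3 CPM in FAK-WT, 19.6 to 21.2 in FAK-/- and 31.9 to 33.9 CPM in FAK-kd libraries and was higher in FAK-kd than in both other lines (adjusted p = 5.71e-05 and 0.000172).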

How the data were processed

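RNA of 9 libraries (3 cell lines, 3 replicates each) had been prepared with a TruSeq RNA v2 kit and sequenced in pairs. According to the submitters' processing notes the authors used kallisto 0.43.1 and mm10 (GRCm38). The transcriptome release is not given in the sources used here. The authors deposited expected counts, that is kallisto's estimated counts brought to gene level with tximport, as whole numbers without scaling; no gene was at 0 in all libraries.

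From these counts, edgeR 4.0.16 in R 4.3.3 was run with TMM on all 19044 genes in 1 fit with the cell line as factor, and Benjamini-Hochberg adjustment over all genes. CPM are TMM-normalised. The cell line came from the sample labels. If replicates were not separate cultures, p-values measure technical spread only. The fit was checked on simulated data. Symbols matched 18856 identifiers.

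The genes described and the gene lists were chosen with earlier results of these data known. Named beside the 10 genes were, per list and comparison, up to 4 that met both criteria without overlap at 1 CPM or more, or else up to 2 with the smallest adjusted p; Gadd45a, Pmaip1, Sirt1, Chek1, Chek2, Cdkn1b, Ccne1, Mdm4 and Ppm1d were named after their values were seen. Promoters were from RefSeq and gene positions from GENCODE, both of GRCm38. Shared 31-base words were counted in GENCODE transcripts. Alternatives were DESeq2 1.42.0, its size factors, library size alone, filterByExpr, at least 10 counts in every library, the 2 groups compared alone, a replicate block, no fold minimum, glmTreat and leaving out each library. Leaving out FAK-WT replicate 1 and FAK-/- replicate 3 together was added after the data were seen. Cdkn2a and Cdkn2b were not tested.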

Additional observations from a re-analysis of the deposited data

How the results depend on the processing

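In FAK-WT against FAK-/- cells 1 of the genes met both criteria. The number was 4 with no fold minimum, 0 with glmTreat, 0 to 1 when each library was left out in turn and 0 when FAK-WT replicate 1 and FAK-/- replicate 3 were both left out (Ccng1 then at 0.93). For FAK-WT against FAK-kd cells it was 0, and 5 with no fold minimum. For FAK-kd against FAK-/- cells it was 0, and 2 with no fold minimum. On adjusted p alone these counts ran over 4 to 5, 4 to 6 and 0 to 3. The Ccng1 and Bbc3 calls in FAK-kd against FAK-/- cells were each lost in 8 of 18 alternatives, for instance with filterByExpr (adjusted p = 0.0518 and 0.0511). Bbc3 in FAK-WT against FAK-/- cells, at -0.11 with all libraries, ran from -0.26 to 0.16 when each library was left out, turning without FAK-/- replicate 3, and was 0.18 without that library and FAK-WT replicate 1. Gdf15, with at most 10 counts, turned to 0.032 with DESeq2 in FAK-WT against FAK-/- cells. With each library left out it ran from -1.25 to 0.34 there, from -1.52 to 0.29 in FAK-WT against FAK-kd cells and from -0.51 to 0.83 in FAK-kd against FAK-/- cells. The cause was not tested. Of 426 values of single genes, 382 kept their direction and side of the threshold.

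Replicate numbers did not pair the libraries (mean r of deviations across genes -0.02 over 9 same-numbered pairs and 0.01 over 18 others). A replicate block left the number meeting both criteria at 1, 0 and 0 and changed no call of the 24. Over all genes both criteria were met by 1024, 1001 and 382 genes in the 3 comparisons, by 433, 450 and 117 with glmTreat and by 160, 131 and 50 of the 8083 genes with at least 10 counts in every library. Further p53 targets higher on adjusted p ranged over 11 to 17, 4 to 9 and 6 to 16 across alternatives, which also moved the number passing over all genes. FAK-WT replicate 1 limits what can be said of genes under 3.85 CPM.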
